A study of Mus musculus with 12 samples.

Results

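The collagen genes of mouse lung tumors were described across 12 tumors in 4 groups of 3. They were all genes of the deposited count table whose symbol reads Col, a number, the letter a and a number, which gave 44 of the 39017 genes listed. RNA had been sequenced from the cells of macrodissected tumors that remained after immune (CD45-positive) cells were removed with magnetic beads. The mice were of C57BL/6 background and carried K-rasLSL-G12D/WT, p53Fl/Fl and CCSP-rtTA, and the KPG1 mice carried Glut1Fl/Fl (floxed *Slc2a1*) in addition, where the KP mice were labelled wt/wt. In the study at large control mice could also be heterozygous for the floxed allele. All mice, controls included, received 6000 viral units of the lentivirus Lenti.TRE-PPARaD13_PGK-Cre in the airways, which starts tumors through Cre. Behind a promoter that needs rtTA and doxycycline the virus also carries PPARαΔ13, a version of the nuclear receptor PPARα that acts as a dominant negative. The tumors labelled KP and KPG1 came from mice on a regular diet. Those labelled KP-PPARαΔ13 and KPG1-PPARαΔ13 came from mice fed 625 mg/kg doxycycline for 15 days, so diet and induction differed together and cannot be told apart. In every group tumors were taken 26 weeks after initiation. rtTA is made only in cells in which the club cell (CCSP) promoter is active, which limits the cells that can be induced. The 3 tumors came from 2 mice in KP, 3 in KP-PPARαΔ13, 2 in KPG1 and 2 in KPG1-PPARαΔ13, by a number in the labels that is read as the mouse. The 3 KP tumors came from females and the 3 KPG1 tumors from males, so sex and genotype cannot be told apart in that comparison. Of the KP-PPARαΔ13 tumors 1 came from a female and 2 from males. Of the KPG1-PPARαΔ13 tumors 2 came from a female and 1 from a male, so sex was unbalanced in the other comparisons too.

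Collagens are secreted proteins whose chains wind around each other inside the cell before export and then assemble into larger structures. Fibrillar collagens, with types I, III and V the common ones, build the fibers that carry tension and are made mostly by fibroblasts. Type IV collagen forms the sheet of the basement membrane under epithelium and around capillaries, and is made by the epithelial and endothelial cells that rest on it. Other members form beaded filaments (type VI), sit on the surface of fibrils, stay anchored in the cell membrane, or link basement membranes to the matrix below.

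Total counts were 25263794 to 32654223 per tumor. Levels are given as CPM (counts scaled to library size after TMM normalization), in the order tumor 1, 2 and 3 of each group. The genes that the design changes separated some groups and not others. *Slc2a1*, the gene of Glut1, was at 35.3 to 57.7 CPM in KP and 30.2 to 64.0 CPM in KPG1, which overlapped. It was at 108 to 152.5 CPM in KP-PPARαΔ13, above every other tumor, and at 23.7 to 54.5 CPM in KPG1-PPARαΔ13. *Ppara*, whose reads can also come from the transgene, was 15.7, 10.5 and 9.54 CPM in KP, 2.71, 64.6 and 246 in KP-PPARαΔ13, 7.24, 10.5 and 15.3 in KPG1, and 8.90, 19.2 and 17.7 in KPG1-PPARαΔ13. Tumor 1 of the group labelled KP-PPARαΔ13 lay below every KP tumor in *Ppara*, and KPG1-PPARαΔ13 overlapped KPG1. The group names below are therefore those of the labels, and the log2 fold changes of collagen genes in KP-PPARαΔ13 against KP are also given without tumor 1 for the genes above or below all KP tumors. The counts of genes include tumor 1. By other measures, the study reported lower expression of PPARα-related gene sets in PPARαΔ13 tumors of both genotypes. It also checked the deletion of Glut1 by PCR and by staining.

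The working name of these genes was collagens of the tumor stroma. Which cells of the fraction made the collagen RNA was not tested, and the levels of cell type markers were as follows. Markers of epithelium summed to 18978 to 60721 CPM over 7 genes, with the surfactant gene *Sftpc* between 5540 and 29952 CPM. The 10 fibroblast markers summed to 22.2 to 148 CPM, from low levels of most members. *Lum*, *Dpt*, *Tcf21*, *Mfap4* and *Fap* were at most 0.68, 1.02, 0.43, 0.97 and 1.48 CPM in any tumor, *Pdgfra* was at 1.93 to 7.47 CPM and *Thy1* at 1.06 to 4.03 CPM. *Dcn* reached 123 CPM in KP-PPARαΔ13 tumor 1 and 22.3 CPM at most elsewhere, and *Pi16* 20.5 CPM in KP tumor 2 and 1.12 CPM at most elsewhere. *Pdgfrb*, which pericytes share with fibroblasts, led that list in 9 tumors and lay at 13.2 to 55.9 CPM over all 12, while *Pi16* led in KP tumor 2 and *Dcn* in KP-PPARαΔ13 tumor 1 and KPG1-PPARαΔ13 tumor 3. The 8 endothelial markers summed to 107 to 651 CPM and the 8 pericyte and smooth muscle markers to 49.2 to 353 CPM. The immune gene *Ptprc*, which encodes CD45, was at 1.88 to 31.5 CPM. The genes are called collagen genes here, by their symbols. In such bulk samples fewer cells of a type and less RNA per cell cannot be told apart.

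The 44 genes took 0.212% of all counts in KP tumor 2, the lowest share, and 0.404% in KP tumor 1, the highest. Both tumors carry the same mouse number. *Col19a1* had no count in any tumor. The filter on low counts kept 35 collagen genes among 16527 genes tested, and the 9 genes it removed reached 2.98 CPM at most, for *Col11a1* in KPG1-PPARαΔ13 tumor 2. A mean of at least 1 CPM was found for 30 genes, and a mean over 100 CPM for 4 genes. These were *Col4a1* (1289 CPM), *Col4a2* (677 CPM), the multiplexins *Col18a1* (478 CPM) and *Col15a1* (105 CPM).

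Levels were compared between genes per kb of exon. On that scale the 6 basement membrane collagens held 45.5% to 76.7% of the summed collagen level of a tumor (median 65.8%), and *Col4a1* alone 25.7% to 44.4%. The 2 multiplexins, which lie in basement membranes and the zone next to them, held 9.86% to 31.6% (median 18.2%). The 11 fibrillar collagens, the bulk of collagen in connective tissue, held 2.75% to 14.7% (median 7.46%). Beaded-filament collagens held 2.91% to 11.8% and fibril-associated collagens 0.92% to 7.81%. The ranges of the basement membrane and multiplexin classes did not overlap, while those of the multiplexin and fibrillar classes did. The length of a gene was that of all its annotated exons merged, which can exceed the length of its RNA. As a share of collagen reads, without scaling by length, the medians were 64.4% for basement membrane, 17.3% for multiplexin and 9.44% for fibrillar collagens.

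**Figure D1:**
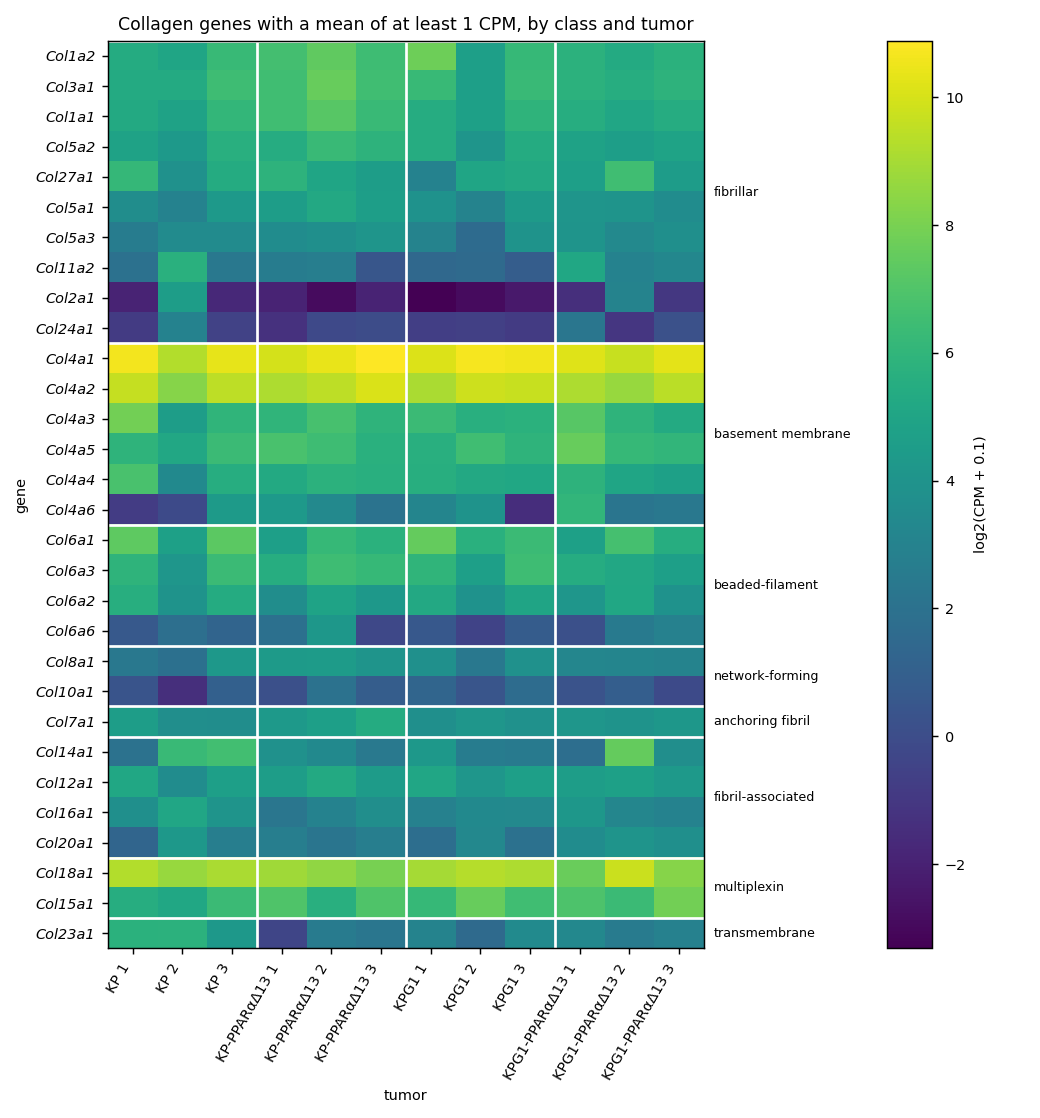
Level of the 30 collagen genes with a mean of at least 1 CPM, as log2(CPM + 0.1), with genes in rows by class and the 12 tumors in columns by group. *Col4a1*, *Col4a2* and *Col18a1* are bright in every tumor, while *Col4a6*, *Col23a1* and *Col14a1* range over 50-fold from tumor to tumor and *Col2a1* is near 0 in 10 tumors.

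The type IV genes lie in head-to-head pairs that are read in opposite directions from neighboring starts. The sequence at 2 of these junctions and upstream of 3 members is shown, because the tumors kept the ratio of some pairs and not of others and because *Col3a1* lay above and *Col23a1* below all KP tumors in KP-PPARαΔ13, though neither passed edgeR's test. Bases come from RefSeq promoter windows of build GRCm38.p6 (the genome of mm10), start sites from GENCODE M21, and capitals mark GGGCGG (or its reverse complement) or TATAAA. The starts of *Col4a1* (minus strand) and *Col4a2* (plus strand) overlapped by 22 bases, at chr8:11312805-11312826, exonic in the annotation and printed on the plus strand. Between the starts of *Col4a4* (minus) and *Col4a3* (plus) lay 71 bases, chr1:82586850-82586920, outside annotated exons. *Col4a6* (minus) and *Col4a5* (plus) were 1308 bases apart, and the 250 bases before the *Col4a6* start are chrX:141474077-141474326, minus strand. The 250 bases before *Col3a1* are chr1:45311288-45311537 and those before *Col23a1* chr11:51289670-51289919, both on the plus strand and outside annotated exons.
Col4a1-Col4a2 overlap: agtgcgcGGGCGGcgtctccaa
Col4a4-Col4a3 gap: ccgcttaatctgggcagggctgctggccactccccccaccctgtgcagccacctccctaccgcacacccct
Col4a6 upstream: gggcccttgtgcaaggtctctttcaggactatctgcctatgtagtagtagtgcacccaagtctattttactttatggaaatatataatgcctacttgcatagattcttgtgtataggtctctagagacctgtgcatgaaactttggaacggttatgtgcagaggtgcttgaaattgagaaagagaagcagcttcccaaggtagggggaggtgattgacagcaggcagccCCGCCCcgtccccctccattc
Col3a1 upstream: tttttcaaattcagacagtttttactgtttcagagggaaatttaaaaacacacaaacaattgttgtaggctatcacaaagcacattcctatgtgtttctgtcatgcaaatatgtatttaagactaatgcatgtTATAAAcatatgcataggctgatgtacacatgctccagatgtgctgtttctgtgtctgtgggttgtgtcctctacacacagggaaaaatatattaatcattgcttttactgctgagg
Col23a1 upstream: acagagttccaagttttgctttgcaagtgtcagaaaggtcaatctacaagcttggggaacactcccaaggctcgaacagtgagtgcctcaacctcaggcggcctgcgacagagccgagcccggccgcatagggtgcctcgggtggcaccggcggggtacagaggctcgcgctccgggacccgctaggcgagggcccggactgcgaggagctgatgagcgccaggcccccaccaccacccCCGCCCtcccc

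A RefSeq window of 300 bases (250 before and 50 after the start) was found for 35 of the 44 collagen genes. On either strand, GGGCGG stood in the windows of 22 of these 35 genes (62.9%) and of 38.2% of all symbols. CCAAT stood in 13 (37.1%, all symbols 41.1%) and TATAAA in 5 (14.3%, all symbols 15.7%). AGGTCA written 2 times with 1 base between, a form of the element that PPAR receptors bind, stood in 0 of the 35 windows and in 0.0481% of all symbols. These are letter matches in short windows and say nothing of binding.

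*Col4a1* and *Col4a2* encode the chains of the common basement membrane network. *Col4a1* was 1621, 615 and 1315 CPM in KP, 1003, 1388 and 1894 in KP-PPARαΔ13, 1146, 1685 and 1549.9 in KPG1, and 1156, 814 and 1288 in KPG1-PPARαΔ13. *Col4a2* was 794, 322 and 708 CPM in KP, 569, 719 and 1093 in KP-PPARαΔ13, 545, 887 and 817 in KPG1, and 563, 419.6 and 682 in KPG1-PPARαΔ13. KP tumor 2 was lowest and KP-PPARαΔ13 tumor 3 highest for both, and all groups overlapped. The ratio of *Col4a1* to *Col4a2* per kb stayed between 1.54 and 1.87 over the 12 tumors, a 1.21-fold range, while *Col4a1* itself ranged 3.08-fold. The count of either gene could include reads from the other in their 22 shared bases, since the strand setting of the counting is not given in the sources used here.

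*Col4a3*, *Col4a4* and *Col4a5* encode the chains of the network of specialized basement membranes, such as those of alveolus and glomerulus. *Col4a3* was 234, 24.3 and 62.8 CPM in KP, 61.8, 109 and 60.1 in KP-PPARαΔ13, 82.2, 50.8 and 53.9 in KPG1, and 146, 61.1 and 41.6 in KPG1-PPARαΔ13. *Col4a4* was 113, 10.8 and 46.7 CPM in KP, 39.9, 55.6 and 50.3 in KP-PPARαΔ13, 48.5, 38.4 and 35.8 in KPG1, and 58.9, 32.9 and 26.6 in KPG1-PPARαΔ13. Both were highest in KP tumor 1 and lowest in KP tumor 2, which share a mouse number, and their ratio per kb was 1.27 to 2.64, a 2.07-fold range. *Col4a5* was 59.9, 36.5 and 82.8 CPM in KP, 112, 88.5 and 52.3 in KP-PPARαΔ13, 49.6, 91.0 and 61.4 in KPG1, and 188, 74.0 and 65.4 in KPG1-PPARαΔ13. *Col4a6*, its neighbor and the chain that pairs with it in smooth muscle and some epithelia, was 0.479, 0.819 and 21.6 CPM in KP, 20.9, 10.4 and 4.15 in KP-PPARαΔ13, 8.68, 15.4 and 0.264 in KPG1, and 66.3, 4.58 and 4.99 in KPG1-PPARαΔ13. The ratio of *Col4a5* to *Col4a6* per kb ran from 3.37 in KPG1-PPARαΔ13 tumor 1 to 275 in KPG1 tumor 3, an 81.7-fold range. *Col4a6* was below 1 CPM in KP tumors 1 and 2 and in KPG1 tumor 3, and the highest tumor, KPG1-PPARαΔ13 tumor 1, has the same mouse number as KPG1-PPARαΔ13 tumor 3, at 4.99 CPM. That highest tumor also had the highest pericyte and smooth muscle marker sum (353 CPM), of which the actin gene *Acta2* made 292 CPM, and the part of such cells in the *Col4a6* level was not tested.

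**Figure D2:**
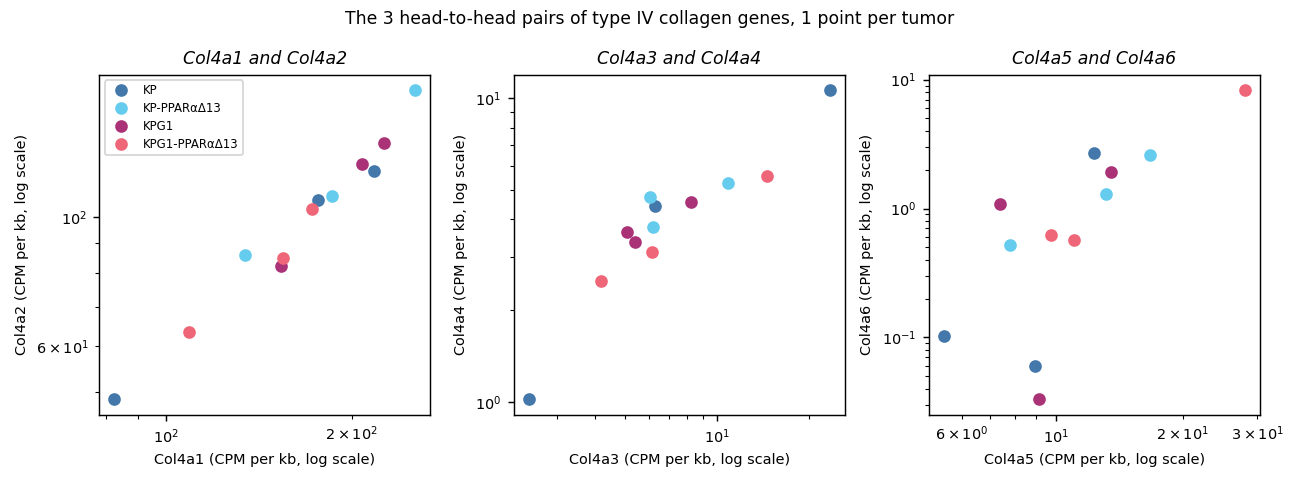
Level of the 3 head-to-head pairs of type IV collagen genes in CPM per kb of exon, both axes on a log scale, with 1 point per tumor colored by group. Points of *Col4a1* and *Col4a2* follow a line, *Col4a3* and *Col4a4* scatter a little more, and *Col4a6* spans a 251-fold range against a 5.16-fold range of *Col4a5*.

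*Col1a1* and *Col1a2* encode the chains of type I collagen, the main fiber of lung matrix and scar. *Col1a1* was 39.0, 29.6 and 69.2 CPM in KP, 90.7, 144 and 77.8 in KP-PPARαΔ13, 45.2, 26.8 and 59.9 in KPG1, and 46.9, 33.5 and 44.3 in KPG1-PPARαΔ13. The KP-PPARαΔ13 tumors lay above every tumor of KP and of both KPG1 groups. *Col1a2* was 42.5, 33.2 and 75.3 CPM in KP, 101, 174 and 87.6 in KP-PPARαΔ13, 218, 26.1 and 72.3 in KPG1, and 56.7, 40.6 and 54.2 in KPG1-PPARαΔ13. Here KPG1 tumor 1 was highest of all, and KP-PPARαΔ13 lay above all KP tumors. The ratio of *Col1a1* to *Col1a2* per kb was 1.55 to 1.95 in 11 tumors and 0.393 in KPG1 tumor 1, where *Col1a2* stood at 218 CPM beside 45.2 CPM of *Col1a1*. KPG1 tumor 2, which has the same mouse number, had 26.1 CPM of *Col1a2*.

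*Col3a1* encodes type III collagen, which is laid down with type I in soft tissue and wounds. It was 41.7, 40.9 and 87.3 CPM in KP, 92.3, 193 and 91.3 in KP-PPARαΔ13, 77.1, 25.8 and 79.7 in KPG1, and 55.6, 45.8 and 57.3 in KPG1-PPARαΔ13. The KP-PPARαΔ13 tumors again did not overlap KP, though tumor 3 of KP was close below them. *Col5a1* and *Col5a2* encode the chains of type V, which starts fibrils and limits their width. *Col5a1* was 12.5, 7.64 and 20.3 CPM in KP, 23.5, 37.5 and 25.2 in KP-PPARαΔ13, 15.2, 8.23 and 20.95 in KPG1, and 17.2, 15.98 and 11.9 in KPG1-PPARαΔ13. *Col5a2* was 29.0, 20.6 and 49.9 CPM in KP, 43.9, 80.1 and 59.1 in KP-PPARαΔ13, 45.0, 16.8 and 42.7 in KPG1, and 29.5, 24.8 and 30.0 in KPG1-PPARαΔ13. KP-PPARαΔ13 lay above KP in *Col5a1* and overlapped KP tumor 3 in *Col5a2*. The less abundant chain gene *Col5a3* was 6.06, 11.5 and 11.6 CPM in KP, 12.1, 13.4 and 17.1 in KP-PPARαΔ13, 8.12, 3.06 and 15.5 in KPG1, and 16.2, 10.1 and 13.2 in KPG1-PPARαΔ13. KP-PPARαΔ13 lay above KP by a small margin and overlapped both KPG1 groups. Summed over the class, the 11 fibrillar genes had 283 ± 68.5 CPM in KP, 498 ± 161 in KP-PPARαΔ13, 298 ± 141 in KPG1 and 272 ± 23.5 in KPG1-PPARαΔ13 (mean ± SD, n = 3 each).

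**Figure D3:**
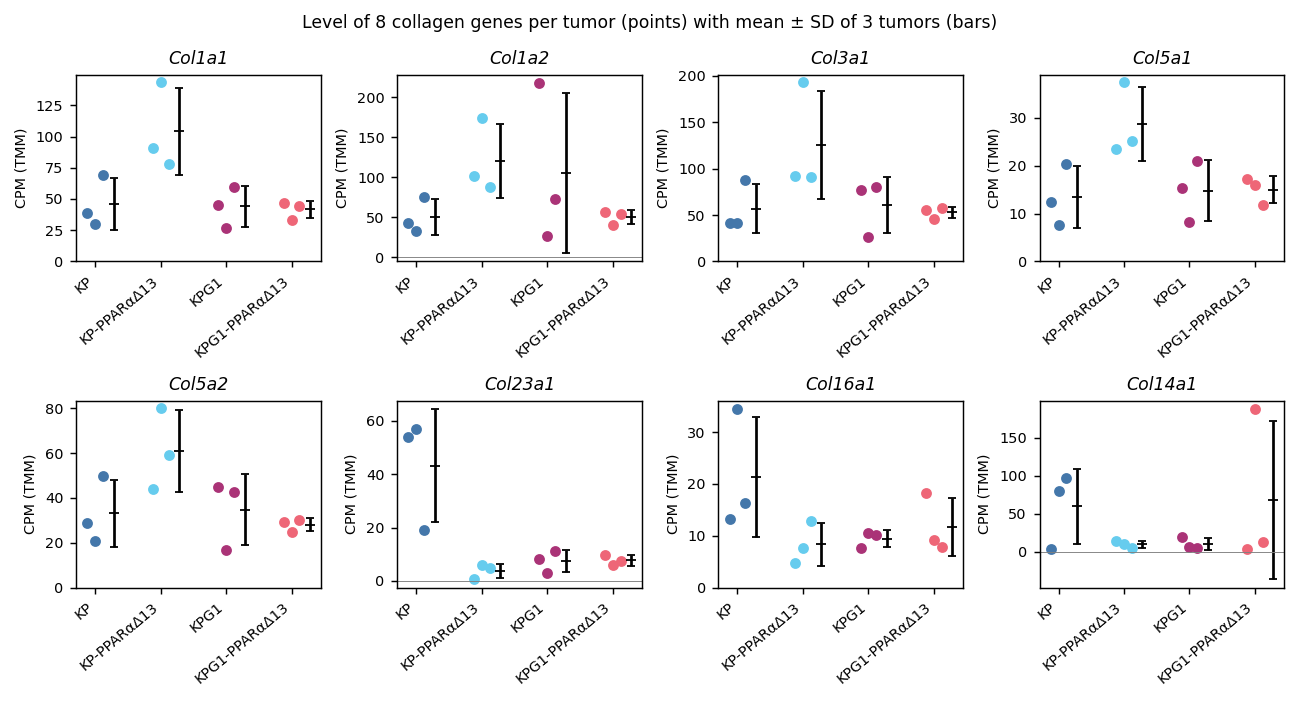
Level in CPM of 8 collagen genes, with 1 point per tumor, and the black bar for mean ± SD of the 3 tumors of a group. The points of KP-PPARαΔ13 lie above those of KP for *Col1a1*, *Col1a2*, *Col3a1* and *Col5a1* and below them for *Col23a1* and *Col16a1*. The mean of *Col14a1* rests on tumors 2 and 3 in KP and on tumor 2 in KPG1-PPARαΔ13.

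Of the remaining fibrillar genes, *Col2a1*, *Col11a2* and *Col24a1* were each high in few tumors. *Col2a1*, the fibrillar collagen of cartilage, was at 24.3 CPM in KP tumor 2 and 8.20 CPM in KPG1-PPARαΔ13 tumor 2, and at 0 to 0.40 CPM in the other 10. *Col11a2*, its partner in cartilage fibrils, was 3.83, 52.0 and 5.15 CPM in KP, 6.24, 6.55 and 1.31 in KP-PPARαΔ13, 2.72, 2.89 and 1.75 in KPG1, and 34.8, 7.91 and 9.42 in KPG1-PPARαΔ13. *Col24a1* was 0.445, 7.70 and 0.592 CPM in KP, 0.308, 0.775 and 0.871 in KP-PPARαΔ13, 0.520, 0.551 and 0.463 in KPG1, and 4.71, 0.384 and 1.05 in KPG1-PPARαΔ13. KP tumor 2 was highest for all of these, and KPG1-PPARαΔ13 tumor 1 was next for *Col11a2* and *Col24a1*. The cartilage genes *Matn1*, *Lect1* and *Comp* were at most 0.03, 0.07 and 0.21 CPM in any tumor, and *Acan*, which encodes aggrecan, was at 10.7 CPM in KPG1-PPARαΔ13 tumor 2 and 0 in KP tumor 2. The sum of the 6 chondrocyte markers was highest in KP tumor 2 (104 CPM) and KPG1-PPARαΔ13 tumor 2 (88.2 CPM), the tumors with *Col2a1*, and *Sox9*, which epithelial progenitors also express, made 104 and 77.2 CPM of it. KP tumor 1 followed with 82.8 CPM, and the part of such cells was not tested. *Col27a1* was 69.9, 14.4 and 42.6 CPM in KP, 57.8, 32.8 and 23.7 in KP-PPARαΔ13, 7.92, 32.8 and 37.7 in KPG1, and 26.0, 92.6 and 23.0 in KPG1-PPARαΔ13. Its groups overlapped, and high values were not limited to 1 tumor.

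Type VI collagen forms beaded filaments around cells, and its main chains are encoded by *Col6a1*, *Col6a2* and *Col6a3*. *Col6a1* was 165, 27.0 and 156 CPM in KP, 26.4, 74.0 and 53.6 in KP-PPARαΔ13, 188, 51.8 and 83.0 in KPG1, and 27.4, 102 and 46.5 in KPG1-PPARαΔ13. *Col6a2* was 47.1, 15.4 and 42.7 CPM in KP, 12.6, 30.2 and 19.3 in KP-PPARαΔ13, 37.7, 15.0 and 30.8 in KPG1, and 17.3, 35.9 and 14.9 in KPG1-PPARαΔ13. *Col6a3* was 61.0, 17.7 and 82.1 CPM in KP, 47.0, 88.5 and 72.9 in KP-PPARαΔ13, 61.6, 26.3 and 88.4 in KPG1, and 44.3, 36.3 and 26.3 in KPG1-PPARαΔ13. For these genes the groups overlapped, except that KPG1-PPARαΔ13 lay below KP-PPARαΔ13 in *Col6a3*. *Col6a6*, a minor chain gene, was 1.44, 3.49 and 2.26 CPM in KP, 3.67, 18.4 and 0.737 in KP-PPARαΔ13, 1.4, 0.620 and 1.65 in KPG1, and 1.02, 5.76 and 7.48 in KPG1-PPARαΔ13. KP-PPARαΔ13 held both its highest value (tumor 2) and 1 of its lowest (tumor 3).

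*Col18a1*, whose protein is cut to release endostatin, was 616, 412 and 553 CPM in KP, 466, 372 and 256 in KP-PPARαΔ13, 499, 639 and 554 in KPG1, and 199, 850.4 and 314 in KPG1-PPARαΔ13. *Col15a1*, its relative in the zone between basement membrane and fibers, was 46.2, 35.4 and 82.0 CPM in KP, 125, 50 and 126 in KP-PPARαΔ13, 73.0, 194 and 90.8 in KPG1, and 119.7, 82.5 and 233 in KPG1-PPARαΔ13. The highest *Col18a1* value and the lowest both came from KPG1-PPARαΔ13, and *Col15a1* overlapped between the groups of each comparison. *Col7a1*, which encodes the anchoring fibrils that tie epithelium to the matrix, was 23.7, 12.7 and 12.4 CPM in KP, 20.02, 26.3 and 43.4 in KP-PPARαΔ13, 13.4, 17.7 and 14.7 in KPG1, and 17.9, 15.9 and 18.1 in KPG1-PPARαΔ13. The KP-PPARαΔ13 tumors lay above both KPG1 groups and overlapped KP tumor 1. *Col8a1*, a network-forming collagen of vessels, was 4.96, 3.76 and 19.2 CPM in KP, 21.4, 22.3 and 16.4 in KP-PPARαΔ13, 14.1, 5.13 and 14.7 in KPG1, and 9.24, 8.68 and 8.19 in KPG1-PPARαΔ13. *Col10a1*, the network-forming collagen of hypertrophic cartilage, was 1.20, 0.273 and 1.98 CPM in KP, 0.994, 3.97 and 1.71 in KP-PPARαΔ13, 2.36, 1.24 and 3.21 in KPG1, and 1.16, 1.82 and 0.800 in KPG1-PPARαΔ13. For *Col8a1* the KP-PPARαΔ13 tumors lay above those of both KPG1 groups, and for *Col10a1* all groups overlapped.

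The fibril-associated collagens do not form fibers and sit on those of other types. *Col12a1* was 35.7, 12.1 and 25.7 CPM in KP, 24.4, 39.8 and 22.4 in KP-PPARαΔ13, 34.5, 17.6 and 25.5 in KPG1, and 23.8, 27.0 and 20.6 in KPG1-PPARαΔ13. *Col14a1* was 3.94, 79.7 and 96.7 CPM in KP, 14.4, 10.8 and 5.23 in KP-PPARαΔ13, 19.2, 6.16 and 5.49 in KPG1, and 3.48, 187 and 12.7 in KPG1-PPARαΔ13. *Col12a1* varied 3.28-fold over all tumors and *Col14a1* 53.9-fold, with 3 tumors at 79.7 CPM or more and the other 9 at most 19.2 CPM. *Col16a1* was 13.2, 34.5 and 16.3 CPM in KP, 4.66, 7.68 and 12.9 in KP-PPARαΔ13, 7.56, 10.5 and 10.2 in KPG1, and 18.2, 9.09 and 7.88 in KPG1-PPARαΔ13. *Col20a1* was 2.43, 18.8 and 6.68 CPM in KP, 6.58, 4.42 and 6.63 in KP-PPARαΔ13, 3.36, 9.81 and 3.87 in KPG1, and 11.8, 16.3 and 13.5 in KPG1-PPARαΔ13. The KP tumors lay above KP-PPARαΔ13 and KPG1 in *Col16a1*, and the KPG1-PPARαΔ13 tumors above KPG1 and KP-PPARαΔ13 in *Col20a1*. *Col23a1*, a collagen that stays anchored in the membrane and is also shed, was 53.8, 56.9 and 18.9 CPM in KP, 0.685, 5.87 and 4.69 in KP-PPARαΔ13, 8.16, 2.96 and 11.2 in KPG1, and 9.72, 5.92 and 7.45 in KPG1-PPARαΔ13. All 3 KP tumors lay above the other 9.

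KP tumor 2 stood apart. Of the 30 genes with a mean of at least 1 CPM it was lowest for 11, among them *Col4a1*, *Col4a2*, *Col4a3*, *Col4a4* and *Col4a5*, and highest for 6, which were *Col2a1*, *Col11a2*, *Col16a1*, *Col20a1*, *Col23a1* and *Col24a1*. It had the lowest epithelial marker sum (18978 CPM) as well, and the part of cell makeup in its collagen levels was not tested. KP-PPARαΔ13 tumor 2 was highest for 9 genes, among them *Col1a1*, *Col3a1*, *Col5a1*, *Col5a2* and *Col6a3*, and lowest for 0.

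Doxycycline-fed and regular-diet tumors labelled wt/wt for *Slc2a1* were compared as KP-PPARαΔ13 against KP. *Col1a1*, *Col1a2*, *Col3a1*, *Col5a1* and *Col5a3* lay higher in all KP-PPARαΔ13 tumors and *Col23a1* and *Col16a1* lower, but none passed edgeR's quasi-likelihood test. Since some tumors share a mouse, these p-values measure the spread between tumors, which is not in every case a spread between animals. Of the 35 collagen genes tested, 0 had a Benjamini-Hochberg adjusted p under 0.05 (0.00605% of all genes did). With an unadjusted p under 0.05 there were 9 collagen genes, 25.7% of those tested beside 11.4% of all genes, 5 higher and 4 lower. The same test by limma voom called 0 collagen genes (0.00605% of all genes). DESeq2 called 1, *Col23a1* (2.25% of all genes), with a log2 fold change of -3.51 and a DESeq2 adjusted p of 0.000143. The tumors of KP-PPARαΔ13 lay above all KP tumors for 5 genes, 14.3% beside 6.55% of all genes, and below them for 2 genes, 5.71% beside 6.7%. The 5 were *Col1a1*, *Col1a2*, *Col3a1*, *Col5a1* and *Col5a3*, all fibrillar, and the 2 were *Col16a1* and *Col23a1*. The median log2 fold change was 0.24 over the 35 collagen genes and -0.008 over all genes tested, with 19 above 0 and 16 below.

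The log2 fold change of *Col1a1* was 1.18 ± 0.37 (SE; edgeR adjusted p = 0.327), and 1.27 without KP-PPARαΔ13 tumor 1. For *Col1a2* it was 1.26 ± 0.61 (SE; edgeR adjusted p = 0.464) and for *Col3a1* 1.15 ± 0.46 (SE; edgeR adjusted p = 0.390). *Col5a1* had 1.09 ± 0.41 (SE; edgeR adjusted p = 0.367) and *Col5a3* 0.54 ± 0.49 (SE; edgeR adjusted p = 0.733). Without KP-PPARαΔ13 tumor 1 these were 1.38, 1.33, 1.22 and 0.64. *Col3a1* was 0.70 without KP-PPARαΔ13 tumor 2 and *Col5a3* 0.29 without KP tumor 1. Without KP tumor 2 the values of *Col1a1*, *Col3a1* and *Col5a1* were 0.94, 0.96 and 0.81. The fibroblast marker sum was 43.0 to 55.9 CPM in KP and 65.0 to 148 CPM in KP-PPARαΔ13. Of the 9 tested markers, 6 had a log2 fold change above 0 and 3 below. Taken singly, 0 lay above all KP tumors and 1 below them (6.55% and 6.7% of all genes did). In the highest tumor, tumor 1, the proteoglycan gene *Dcn* made 123 CPM of the sum. The part of such cells in the fibrillar values was not tested. In the other direction *Col23a1* had -3.52 ± 0.75 (SE; edgeR adjusted p = 0.256), and -3.03 without KP-PPARαΔ13 tumor 1. *Col16a1* had -1.34 ± 0.48 (SE; edgeR adjusted p = 0.351), and -0.81 without KP tumor 2 and -1.05 without KP-PPARαΔ13 tumor 1. *Col14a1* had -2.57 ± 1.32 (SE; edgeR adjusted p = 0.496) and *Col6a6* 1.67 ± 0.98 (SE; edgeR adjusted p = 0.556), with groups that overlapped, and -2.90 and 2.00 without KP-PPARαΔ13 tumor 1. *Col6a6* was -0.12 without KP-PPARαΔ13 tumor 2. *Col2a1* differed through KP tumor 2, and its log2 fold change went from -6.02 ± 2.07 to -0.61 without that tumor. For *Col4a1* and *Col4a2*, the most abundant collagens, it was 0.27 ± 0.37 and 0.38 ± 0.37.

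Doxycycline-fed and regular-diet tumors with floxed *Slc2a1* alleles were compared as KPG1-PPARαΔ13 against KPG1, which shares no tumor with the comparison above. The log2 fold changes of *Col1a1*, *Col3a1* and *Col5a1* lay within their standard errors of 0 here. Of the 35 genes, 0 passed edgeR's adjusted threshold (0.00605% of all genes), 0 passed in DESeq2 (1.28% of all genes) and 0 in voom (0.0% of all genes). With an unadjusted p under 0.05 there were 2, *Col2a1* and *Col11a2*, 5.71% beside 10.8% of all genes. DESeq2 gave no adjusted p for these in any comparison. It also gave none for the low *Col9a3*, *Col25a1*, *Col8a2* and *Col26a1* here and in KPG1 against KP. KPG1-PPARαΔ13 lay above all KPG1 tumors for 4 genes, 11.4% beside 11.2% of all genes, and below them for 0 genes, beside 9.41%. The share of higher genes was near the background. The 4 were *Col2a1*, *Col11a2*, *Col20a1* and the low *Col9a3*. The median log2 fold change of the 35 genes was 0.05, and 0.02 over all genes.

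*Col1a1* had a log2 fold change of -0.08 ± 0.37 (SE; edgeR adjusted p = 0.954), *Col3a1* -0.20 ± 0.45 (SE; edgeR adjusted p = 0.895) and *Col5a1* 0.02 ± 0.40 (SE; edgeR adjusted p = 0.992). *Col5a2* had -0.31 ± 0.40 (SE; edgeR adjusted p = 0.803) and *Col5a3* 0.56 ± 0.49 (SE; edgeR adjusted p = 0.700), the latter about as large as in KP-PPARαΔ13 against KP. For *Col1a2* it was -1.06 ± 0.60, which rested on KPG1 tumor 1 and became 0.04 without it. *Col6a1* had -0.87 ± 0.70 (SE; edgeR adjusted p = 0.683) and *Col10a1* -0.84 ± 0.71 (SE; edgeR adjusted p = 0.695), which were -0.20 without KPG1 tumor 1 and -0.54 without KPG1 tumor 3. Without KPG1-PPARαΔ13 tumor 1 or 2 *Col6a1* was -0.53 or -1.54. Among the higher genes *Col11a2* had 2.82 ± 1.02 (SE; edgeR adjusted p = 0.420) and *Col20a1* 1.29 ± 0.63 (SE; edgeR adjusted p = 0.496), and *Col11a2* was 1.82 without KPG1-PPARαΔ13 tumor 1. *Col14a1* had 2.73 ± 1.33, which rested on KPG1-PPARαΔ13 tumor 2 and became -0.34 without it. For *Col2a1*, with 0 to 0.10 CPM in KPG1, the group means were 2.96 and 0.04 CPM. *Col23a1* had 0.05 ± 0.68 and *Col4a1* -0.43 ± 0.37.

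**Figure D4:**
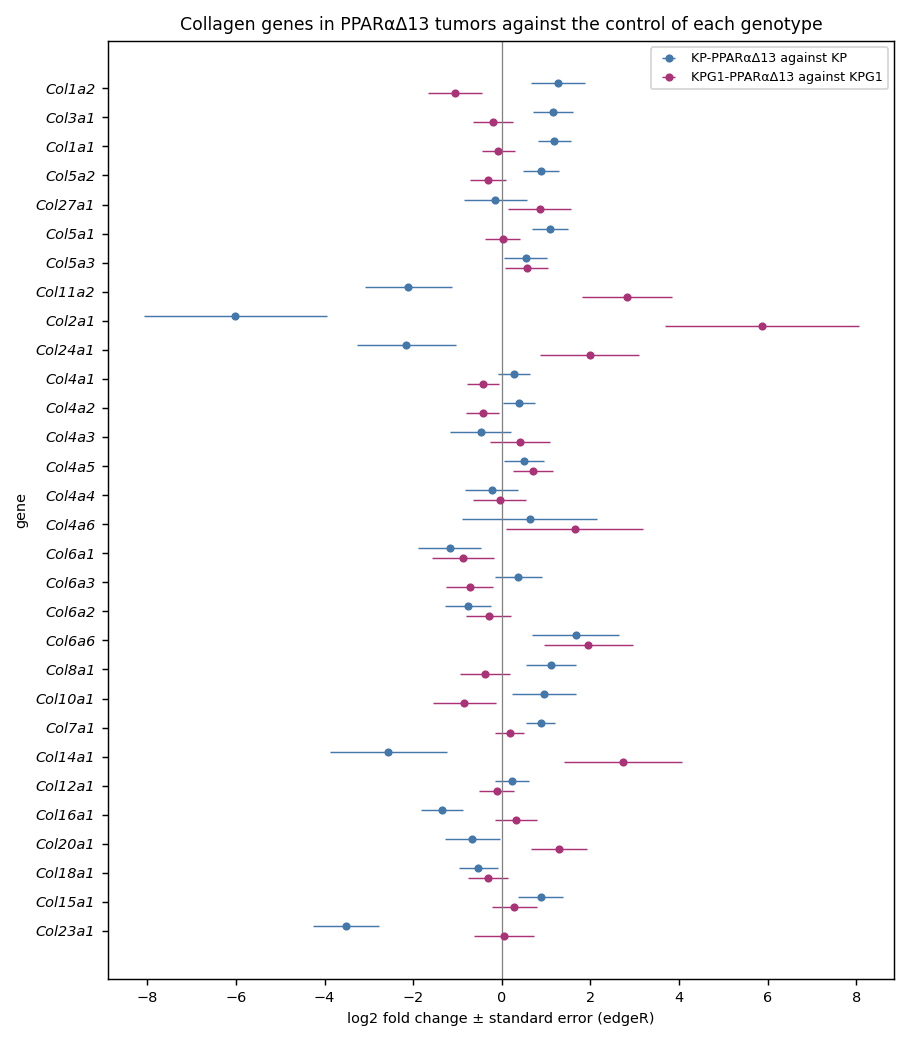
Log2 fold change ± standard error from edgeR, for the 30 collagen genes with a mean of at least 1 CPM, of KP-PPARαΔ13 against KP (blue) and of KPG1-PPARαΔ13 against KPG1 (purple). *Col1a1*, *Col3a1* and *Col5a1* lie above 1 in KP and near 0 in KPG1, *Col23a1* lies at -3.52 in KP and 0.05 in KPG1, and the values of *Col2a1*, which rests on few reads in most tumors, have the longest bars.

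The difference between the log2 fold changes of these comparisons, called the difference of effects below, was tested as an interaction of diet and genotype. It passed edgeR's adjusted threshold for 0 collagen genes (0.0% of all genes) and voom's for 0 (0.0% of all genes), while DESeq2 called 1 (1.73% of all genes). That gene was *Col23a1*, with 3.57 ± 0.99 (SE; edgeR adjusted p = 0.335) in edgeR and a DESeq2 log2 value of 3.55 with adjusted p = 0.0208. With an unadjusted p under 0.05 there were 10 collagen genes, 28.6% beside 11.8% of all genes, 8 with a higher and 2 with a lower effect in KPG1. The lower ones were *Col1a1* and *Col1a2*. *Col1a1* had -1.26 ± 0.53 (SE; edgeR adjusted p = 0.404) and *Col1a2* -2.32 ± 0.86 (SE; edgeR adjusted p = 0.372), the latter -1.23 without KPG1 tumor 1. *Col8a1* had -1.48 ± 0.80 (SE; edgeR adjusted p = 0.478) and *Col10a1* -1.80 ± 1.01 (SE; edgeR adjusted p = 0.494), which were -2.58 without KP tumor 3 and -1.08 without KP-PPARαΔ13 tumor 2. Higher values were led by *Col2a1*, *Col14a1* and *Col11a2*, with 5.29 ± 1.88 for *Col14a1* and 4.94 ± 1.42 for *Col11a2*, and these were 2.23 without KPG1-PPARαΔ13 tumor 2 and 2.76 without KP tumor 2. The median over the 35 genes was 0.21, and 0.03 over all genes.

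The genotypes on the regular diet were set side by side as KPG1 against KP. KP tumors enter this comparison, that of KP-PPARαΔ13 against KP and the difference of effects, so values that rest on KP appear in all of them. In edgeR the adjusted threshold was passed by 0 collagen genes (0.0363% of all genes) and voom's by 0 (0.0303%), and DESeq2 called 1 (0.363% of all genes). It was *Col23a1*, with a log2 fold change of -2.54 ± 0.72 (SE; edgeR adjusted p = 0.785) in edgeR and -2.53 with adjusted p = 0.0466 in DESeq2. With an unadjusted p under 0.05 there were 6, 17.1% beside 6.23% of all genes, of which 5 were lower in KPG1. KPG1 lay below all KP tumors for 5 genes, 14.3% beside 5.13%, and above them for 0 genes, beside 4.82%. These were *Col2a1*, *Col11a2*, *Col16a1*, *Col23a1* and the low *Col28a1*. *Col16a1* had -1.18 ± 0.48 (SE; edgeR adjusted p = 0.787) and *Col11a2* -3.05 ± 1.03 (SE; edgeR adjusted p = 0.785), which were -0.65 and -0.87 without KP tumor 2. *Col14a1* had -2.55 ± 1.32 (SE; edgeR adjusted p = 0.789). Among the higher genes *Col15a1* had 1.13 ± 0.52 (SE; edgeR adjusted p = 0.787) and *Col10a1* 0.98 ± 0.72 (SE; edgeR adjusted p = 0.833). *Col15a1* was 0.61 without KPG1 tumor 2, and *Col10a1* was 0.51 without KP tumor 2 and 1.63 without KP tumor 3. *Col1a2* had 1.07 ± 0.60, which was -0.03 without KPG1 tumor 1. *Col1a1* and *Col3a1* differed by -0.06 ± 0.37 and 0.10 ± 0.45. The median over the 35 genes was -0.11, and -0.03 over all genes.

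On doxycycline, KPG1-PPARαΔ13 was compared with KP-PPARαΔ13, whose tumors also enter the first comparison. The values of *Col1a1*, *Col1a2*, *Col3a1*, *Col5a1* and *Col5a2* lay below those of KP-PPARαΔ13 in every tumor, while *Col5a3* had -0.11 ± 0.49 (SE; edgeR adjusted p = 0.959) and overlapped. The count past the adjusted threshold was 0 in edgeR (0.0303% of all genes), 0 in DESeq2 (0.938% of all genes) and 0 in voom (0.0303% of all genes). With an unadjusted p under 0.05 there were 6, 17.1% beside 9.69% of all genes, 1 higher and 5 lower. KPG1-PPARαΔ13 lay below all KP-PPARαΔ13 tumors for 8 genes, 22.9% beside 7.25%, and above them for 5, 14.3% beside 10.3%. The 8 were *Col1a1*, *Col1a2*, *Col3a1*, *Col5a1*, *Col5a2*, *Col6a3*, *Col7a1* and *Col8a1*. *Col1a1* had -1.32 ± 0.38 (SE; edgeR adjusted p = 0.462), *Col1a2* -1.26 ± 0.61 (SE; edgeR adjusted p = 0.524) and *Col3a1* -1.25 ± 0.46 (SE; edgeR adjusted p = 0.492). *Col5a1* had -0.94 ± 0.40 (SE; edgeR adjusted p = 0.505), *Col5a2* -1.12 ± 0.40 (SE; edgeR adjusted p = 0.486) and *Col6a3* -0.96 ± 0.53 (SE; edgeR adjusted p = 0.563). *Col7a1* had -0.79 ± 0.33 (SE; edgeR adjusted p = 0.499) and *Col8a1* -1.20 ± 0.57 (SE; edgeR adjusted p = 0.519). *Col3a1* was -0.80 without KP-PPARαΔ13 tumor 2 and *Col7a1* -0.42 without tumor 3 of that group. The 5 higher genes were *Col2a1*, *Col9a3*, *Col11a2*, *Col20a1* and *Col23a1*. *Col20a1* had 1.24 ± 0.63 (SE; edgeR adjusted p = 0.535), *Col11a2* 1.89 ± 0.98 (SE; edgeR adjusted p = 0.543) and *Col23a1* 1.04 ± 0.69 (SE; edgeR adjusted p = 0.624). *Col11a2* was 0.88 without KPG1-PPARαΔ13 tumor 1, and *Col23a1* 0.54 without KP-PPARαΔ13 tumor 1. *Col14a1* had 2.74 ± 1.33, which was -0.32 without KPG1-PPARαΔ13 tumor 2. The fibroblast markers summed to 32.9 to 51.8 CPM in KPG1-PPARαΔ13, below the 65.0 to 148 CPM of KP-PPARαΔ13. Of the 9 tested markers, 3 had a log2 fold change above 0 and 6 below. Taken singly, 0 lay above and 0 below all KP-PPARαΔ13 tumors (10.3% and 7.25% of all genes did). The part of fibroblasts in the collagen values was not tested. The median over the 35 genes was 0.11, and 0.005 over all genes.

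Read by class in KP-PPARαΔ13 against KP, the 10 tested fibrillar genes had a median log2 fold change of 0.71, with 5 above all KP tumors (6.55% of all genes were), and the 6 basement membrane genes 0.33, with 0 above. Of the fibrillar genes 6 had a log2 fold change above 0 and 4 below. Among the 4 were *Col2a1* (-6.02), *Col24a1* (-2.16) and *Col11a2* (-2.11), each highest in KP tumor 2. The 4 beaded-filament genes had -0.19 and the 5 fibril-associated genes -0.72, with 1 of them below all KP tumors (6.7% of all genes were). In KPG1-PPARαΔ13 against KPG1 the fibrillar median was 0.29, the basement membrane median 0.18, the beaded-filament median -0.51 and the fibril-associated median 1.28. These medians are descriptions with no test. Over all genes tested they were -0.008 and 0.02. Both fibril-associated medians are the value of *Col9a3*, a gene with a mean of 0.30 CPM, where few reads set the value.

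The genes that make, cut, cross-link and bind collagen were followed as 4 lists, and 0 members passed edgeR's adjusted threshold in any of the 5 comparisons. Among 17 genes of procollagen folding, such as the prolyl hydroxylases and the chaperone gene *Serpinh1*, 1 was above and 1 below all KP tumors in KP-PPARαΔ13, beside 6.55% and 6.7% of all genes (median log2 fold change 0.23). *Leprel2*, a prolyl hydroxylase gene, had -2.20 ± 0.68 (SE; edgeR adjusted p = 0.326). It was 4.04, 27.9 and 8.56 CPM in KP, 2.36, 3.26 and 3.18 in KP-PPARαΔ13, 4.08, 1.24 and 4.59 in KPG1, and 4.81, 7.56 and 3.88 in KPG1-PPARαΔ13. KP lay above KP-PPARαΔ13, and KP tumor 2 held much of the KP mean. *Serpinh1*, which like *Ddr1* and *Tnc* below was chosen after its values were seen, was 164, 288 and 278 CPM in KP, 190.3, 269 and 135 in KP-PPARαΔ13, 244, 247 and 192 in KPG1, and 252, 236 and 249 in KPG1-PPARαΔ13, and its groups overlapped.

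Of 12 genes of procollagen cleavage and cross-linking, 3 lay above all KP tumors in KP-PPARαΔ13 (6.55% of all genes did), with a median of 0.55. In KPG1-PPARαΔ13 the list had 0 above and 2 below all KPG1 tumors (11.2% and 9.41% of all genes), with a median of -0.26, and 0 above and 5 below all KP-PPARαΔ13 tumors (10.3% and 7.25%), with a median of -1.01. The lysyl oxidase gene *Loxl2* had 2.09 ± 0.57 (SE; edgeR adjusted p = 0.305) and *Loxl4* 2.98 ± 0.84 (SE; edgeR adjusted p = 0.305). *Loxl2* was 1.57, 0.788 and 2.26 CPM in KP, 7.71, 9.75 and 2.31 in KP-PPARαΔ13, 1.88, 0.929 and 1.49 in KPG1, and 1.26, 1.89 and 1.94 in KPG1-PPARαΔ13, and *Loxl4* was 0.753, 0.243 and 0.766 CPM in KP, 1.95, 0.936 and 11.1 in KP-PPARαΔ13, 0.800, 0.895 and 0.562 in KPG1, and 0.785, 1.505 and 1.26 in KPG1-PPARαΔ13. Tumor 3 of KP-PPARαΔ13 set the *Loxl4* value. *Pcolce*, an enhancer of the enzyme that trims fibrillar procollagen, was 109.9, 7.88 and 32.4 CPM in KP, 179.7, 151 and 108 in KP-PPARαΔ13, 106, 126 and 68.6 in KPG1, and 17.7, 16.1 and 20.4 in KPG1-PPARαΔ13. KPG1-PPARαΔ13 lay below KPG1 and KP-PPARαΔ13, with its 3 tumors close together. Its log2 fold change was -2.47 ± 0.69 (SE; edgeR adjusted p = 0.420) against KPG1 and -3.01 ± 0.70 (SE; edgeR adjusted p = 0.462) against KP-PPARαΔ13.

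Of 8 collagen receptor genes, 3 lay above all KP tumors in KP-PPARαΔ13 (6.55% of all genes did), with a median of 0.53. In KPG1-PPARαΔ13 the list had 0 above and 1 below all KPG1 tumors (11.2% and 9.41% of all genes) and 0 above and 1 below all KP-PPARαΔ13 tumors (10.3% and 7.25%), with medians of -0.16 and -0.25. *Ddr1*, the receptor kinase of epithelium, was 134, 86.1 and 113 CPM in KP, 236, 189 and 199 in KP-PPARαΔ13, 127, 199 and 93.4 in KPG1, and 65.6, 109 and 155 in KPG1-PPARαΔ13. Its log2 fold change was 0.91 ± 0.33 (SE; edgeR adjusted p = 0.367) in KP and -0.35 ± 0.33 (SE; edgeR adjusted p = 0.722) in KPG1. *Ddr2*, the receptor kinase of mesenchymal cells, was 60.1, 5.03 and 15.8 CPM in KP, 43.5, 7.10 and 39.1 in KP-PPARαΔ13, 11.6, 43.6 and 10.97 in KPG1, and 8.83, 5.63 and 6.25 in KPG1-PPARαΔ13. *Ddr2* varied widely within KP, KP-PPARαΔ13 and KPG1. Its KPG1-PPARαΔ13 tumors lay close together and below all KPG1 tumors, so it is the 1 gene counted there. Against KP-PPARαΔ13 the KPG1-PPARαΔ13 tumors overlapped, with -2.11 ± 0.89 (SE; edgeR adjusted p = 0.503).

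Of 23 genes of collagen-binding matrix, 5 lay above and 1 below all KP tumors in KP-PPARαΔ13 (6.55% and 6.7% of all genes did), with a median of 0.35, and 19 of the 23 had a log2 fold change above 0. *Bgn*, which encodes biglycan, was 232, 37.4 and 228 CPM in KP, 1081, 543 and 829 in KP-PPARαΔ13, 240.1, 1052 and 471 in KPG1, and 142, 818 and 549 in KPG1-PPARαΔ13. Its log2 fold change was 2.30 ± 0.78 (SE; edgeR adjusted p = 0.334), and KP-PPARαΔ13 lay above KP. *Dcn*, which encodes the fibril-binding proteoglycan decorin and is also in the fibroblast list, was 5.20, 5.46 and 6.09 CPM in KP, 123, 10.8 and 4.79 in KP-PPARαΔ13, 9.16, 4.51 and 4.59 in KPG1, and 5.42, 4.002 and 22.3 in KPG1-PPARαΔ13, so the log2 fold change of 3.05 ± 1.06 (SE; edgeR adjusted p = 0.341) came mainly from 1 tumor. *Tnc*, which encodes tenascin C, was 10.4, 6.12 and 33.5 CPM in KP, 84.0, 62.6 and 86.6 in KP-PPARαΔ13, 14.3, 14.8 and 18.1 in KPG1, and 14.8, 57.7 and 15.0 in KPG1-PPARαΔ13. KP-PPARαΔ13 lay above KP and KPG1. In KPG1-PPARαΔ13 against KPG1 the list had a median of -0.21, with 0 above and 1 below all KPG1 tumors (11.2% and 9.41% of all genes). In KPG1-PPARαΔ13 against KP-PPARαΔ13 the median was -0.56, with 1 above and 3 below (10.3% and 7.25%).

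**Figure D5:**
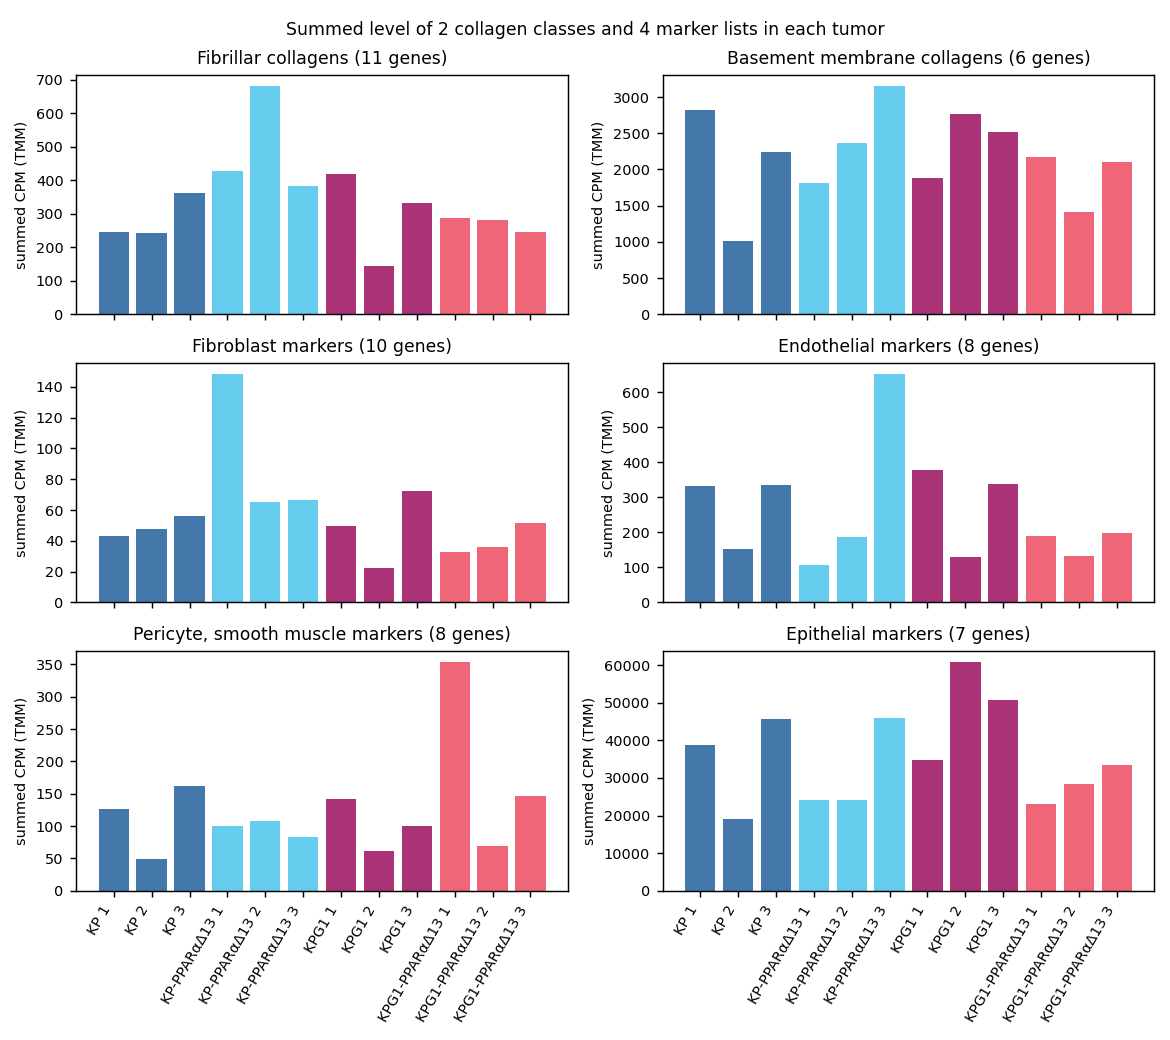
Summed level in CPM of the fibrillar and basement membrane collagens and of 4 marker lists, 1 bar per tumor colored by group, each on its own linear axis from 0. Fibrillar collagens are highest in KP-PPARαΔ13 tumor 2 (682 CPM), fibroblast markers in tumor 1 (148 CPM) and endothelial markers in tumor 3 (651 CPM) of the same group.

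Marker levels and collagen levels ranked some tumors alike and others not, and their ranks were not compared over all tumors. KP-PPARαΔ13 tumor 3, with the highest endothelial sum (651 CPM), had the highest *Col4a1* (1894 CPM), and KP-PPARαΔ13 tumor 1, with the lowest (107 CPM), had 1003 CPM. KPG1 tumor 2, with an endothelial sum of 130 CPM, had 1685 CPM of *Col4a1* and the highest epithelial sum (60721 CPM). The tumor with the highest fibroblast sum, KP-PPARαΔ13 tumor 1 (148 CPM), had 428 CPM of fibrillar collagens, below the 682 CPM of tumor 2 with a fibroblast sum of 65.0 CPM. KPG1 tumor 2 was lowest for both, at 22.2 CPM of fibroblast markers and 143 CPM of fibrillar collagens. All KP-PPARαΔ13 tumors lay above all KP tumors in both sums. Taken singly, 0 of the 9 tested fibroblast markers lay above all KP tumors and 1 lay below them. Fibroblast markers summed to 65.0 to 148 CPM beside 43.0 to 55.9 CPM, and fibrillar collagens to 384 to 682 CPM beside 242 to 362 CPM. Markers of mesothelium summed to 159 to 295 CPM in KP-PPARαΔ13 and 2.94 to 94.7 CPM elsewhere, of which *Msln* made nearly all, while the defining markers *Wt1* and *Lrrn4* were at most 0.23 and 0.94 CPM. Chondrocyte markers summed to 28.8 to 104 CPM, of which *Sox9* made most in all tumors, Schwann cell markers to 2.21 to 8.03 CPM, and leukocyte markers to 169 to 4249 CPM, of which *Lyz2*, also a gene of alveolar type II cells, made most. The part of any of these cells in the collagen levels was not tested.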

How the data were processed

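RNA sequencing data of 12 tumors were used. The authors deposited raw read counts per gene, 1 table per tumor and a combined table, and the 12 single tables equalled the combined one. The submitters' processing notes name bcl2fastq 2.17, cutadapt 1.4.2, HISAT2, featureCounts 1.4.4, edgeR and the build mm10. The kit keeps strand, and the strand setting used in counting is not given in the sources used here. Total counts were 25263794 to 32654223 per tumor. Genes were filtered with filterByExpr, scaled by TMM, and tested with edgeR 4.0.16 (quasi-likelihood) in R 4.3.3 in 1 fit of the 4 groups, with Benjamini-Hochberg adjustment over all genes tested and a threshold of 0.05. Alternatives were DESeq2 1.42.0, limma 3.58.1 (voom), other scalings and filters, sex, a replicate block, tumors of 1 mouse summed, and each tumor left out. Scripts were tested on simulated data.

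CPM per kb used the merged length of all GENCODE M21 exons of a gene. Every tumor is given for collagen genes with a group mean of at least 20 CPM, and for the 3 largest log2 fold changes per direction and comparison among genes with a mean of at least 1 CPM. Of the partner lists, examples came from the 2 largest per direction. Members and lists were chosen with earlier results of these data known. Replicate numbers did not pair the tumors.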

Additional observations from a re-analysis of the deposited data

How the results depend on the processing

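The count of collagen genes past the adjusted threshold was 0 in all 5 comparisons in edgeR and stayed 0 under every alternative except DESeq2, which called 1 collagen gene in KP-PPARαΔ13 against KP, 1 in KPG1 against KP and 1 in the difference of effects. That gene was *Col23a1*, and in KP-PPARαΔ13 against KP its adjusted p ran from 0.000143 (DESeq2) to 0.541 over the alternatives. All of these calls use the same KP tumors, at 18.9 to 56.9 CPM of *Col23a1* beside at most 11.2 CPM elsewhere. The median log2 fold change of the tested collagen genes was -0.21 in KP-PPARαΔ13 against KP with no filter on low counts, where 43 genes were tested in place of 35. In the difference of effects it was -0.58 with a mean of at least 20 TPM required, where 10 genes were tested, and -0.41 with sex as a covariate, where the cause was not tested. Leaving out 1 tumor at a time, the medians ran from -0.05 to 0.48 in KP-PPARαΔ13 against KP, from -0.15 to 0.17 in KPG1-PPARαΔ13 against KPG1, from -0.27 to 0.02 in KPG1 against KP, from -0.32 to 0.33 in KPG1-PPARαΔ13 against KP-PPARαΔ13 and from -0.23 to 0.39 in the difference. The sign of these medians therefore rested on single tumors, among them KPG1-PPARαΔ13 tumor 1 (-0.28 against KP-PPARαΔ13 without it) and tumor 2 (-0.32). Of the values of named genes under alternatives, 962 kept direction and side of the threshold, 2 passed it (*Col23a1* in DESeq2, at -3.51 and -2.53) and 5 reversed. The 962 include DESeq2 values of *Col2a1* and *Col11a2*, which had no adjusted p and were counted as not past the threshold. The reversals came from leaving out 1 tumor, and over all tumors left out *Col6a6* in KP-PPARαΔ13 against KP ran from -0.12 (without KP-PPARαΔ13 tumor 2) to 2.20. *Col14a1* ran from -0.34 to 3.54 in KPG1-PPARαΔ13 against KPG1 and from -0.32 to 3.30 against KP-PPARαΔ13, both lowest without KPG1-PPARαΔ13 tumor 2. *Col1a2* ran from -1.56 to 0.036 in KPG1-PPARαΔ13 against KPG1 and from -0.032 to 1.55 in KPG1 against KP, with the reversed values without KPG1 tumor 1. With the replicate number as a block 0 collagen genes were called, with medians of 0.11, 0.09, -0.19, -0.09 and 0.16. Deviations of equally numbered tumors correlated at -0.168 to 0.0896, so the tumors shared only a number. Depth limits genes under 1 CPM, 14 of the 44, where few reads set the value. A fit of only the groups compared could not be made for the difference, which uses all 4.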
